A study of Homo sapiens with 9 samples.

Results

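The histone genes of PANC-1, an epithelial-like cell line from a human pancreatic tumour, were followed through nutrient and oxygen deprivation. They were taken by symbol: every symbol that starts with HIST1H, HIST2H, HIST3H or HIST4H, plus H1F0, H1FX, H2AFJ, H2AFV, H2AFX, H2AFY, H2AFY2, H2AFZ, H3F3A and H3F3B. The rule found 81 of the 27800 symbols in the deposited table. Of these, 71 were genes of the replication-dependent clusters and 10 were replacement variants. In current human annotation the HIST1 genes lie on chromosome 6, the HIST2 and HIST3 genes on chromosome 1, and HIST4H4 on chromosome 12.

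Histones are the proteins around which nuclear DNA is wound. Genes of the replication-dependent clusters are classically transcribed during DNA synthesis, and their mRNAs end in a short stem-loop in place of a poly(A) tail. The stem-loop is bound by SLBP, and these mRNAs are degraded when DNA synthesis stops. Some cluster genes can also make longer, polyadenylated mRNAs from a site downstream of the stem-loop, a form described in differentiating and non-dividing cells. Replacement variants are made throughout the cell cycle from polyadenylated mRNAs and enter chromatin outside DNA replication as well.

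The 9 samples fall into 3 groups of 3 libraries each, from cells at day 0, day 2 and day 14 of deprivation. All groups carry the same cell line with no genetic change and no added agent, and a single description of the medium, low in glucose, serum and amino acids, is given for all of them. How the day 0 cells were kept is thus not stated, and no undeprived cells were sampled at day 2 or day 14, so deprivation cannot be told apart from time in culture or from a batch by day. No label says that replicates were separate cultures, so each p-value reflects the spread among these libraries alone, and that spread may be technical. Levels were in TPM (estimated reads per transcript length, scaled to a fixed sum in each library), which keeps no sequencing depth, so the depth was unknown. In bulk RNA, fewer cells that express a gene and less of its RNA per cell cannot be told apart. The labels give total RNA and do not say whether poly(A) RNA was selected, which bears on how much of the stem-loop form was read.

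One library stood apart. Day 0 replicate 2 correlated with day 0 replicates 1 and 3 at 0.870 and 0.875 across tested genes, whereas those 2 correlated with each other at 0.972. It reached 1 TPM in 11363 genes, where the other 8 libraries did so in 13016 to 13868, and 24.3% of its TPM went to symbols of short RNAs, against 30.1% to 43.5%. Summed levels of 7 epithelial identity markers were 3271 to 4533 TPM at day 0, 1527 to 1900 at day 2 and 1468 to 1756 at day 14; 1 of the 7 was called higher and 4 lower in each comparison with day 0. Markers of fibroblasts, mostly COL1A1, summed to 10.5 to 62.8 TPM at day 0, 56.6 to 74.0 at day 2 and 8.66 to 13.2 at day 14; COL3A1 was called lower at day 14, and COL1A2 was at 0 in 8 libraries. Blood cell markers summed to 21.6 to 68.8 TPM, of which CD68 alone held 21.3 to 68.6 TPM, and endothelial markers to at most 0.544 TPM. The part of these markers in the histone values was not tested.

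The stem-loops of the histone genes on which the results turn are shown first, because they are the feature by which the mRNAs of the clusters are defined. A search of GENCODE v29 transcripts (GRCh38) for the histone stem-loop, on the transcript strand and with all 6 stem bases paired, found the motif in 30 of the 71 cluster genes and in 1 of the 10 replacement variants, H2AFX. Among other protein-coding genes, 110 of 19591 (0.561%) held it. Capitals mark the 16 bases of the stem-loop, in DNA letters from 5′ to 3′, with the bases on either side in lower case.
HIST1H2AC: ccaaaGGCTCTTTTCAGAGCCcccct
HIST1H2BD: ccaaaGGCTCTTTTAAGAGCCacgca
HIST2H2BE: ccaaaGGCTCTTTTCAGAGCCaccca
HIST1H4H: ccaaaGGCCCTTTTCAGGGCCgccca
HIST2H4B: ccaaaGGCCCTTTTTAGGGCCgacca
H2AFX: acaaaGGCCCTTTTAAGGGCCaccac

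The form of HIST1H2AC was the most common, shared by 15 cluster genes of the H2A, H2B and H3 families. The form of HIST1H4H was found in 5 genes, all of the H4 family. A missing match says only that these letters are not in the annotated transcripts: for 33 cluster genes every annotated transcript held the coding sequence alone.

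The replication-dependent clusters held more of the summed TPM in deprived cells than at day 0, while the sums of the replacement variants overlapped between days. Summed over the 71 cluster genes, the level was 469, 282 and 365 TPM in the 3 day 0 libraries, 1170, 1223 and 1178 TPM at day 2, and 2189, 1516 and 1382 TPM at day 14. Every library of either deprived day stood above every day 0 library, and in TPM as deposited day 14 stood above day 2 throughout. Under median-ratio scaling (libraries rescaled to a common median ratio) both deprived days remained above day 0, but day 14 (1689, 1278 and 1155) overlapped day 2 (1205, 1089 and 1187). The mean was 372 ± 93.8 TPM at day 0, 1191 ± 28.8 at day 2 and 1696 ± 432 at day 14 (SD, n = 3 each), or 3.20 times the day 0 mean at day 2 and 4.56 times at day 14. Day 14 replicate 1 was the highest of the 9.

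Summed over the 10 replacement variants, the level was 1505, 1654 and 1601 TPM at day 0, 1570, 1992 and 1572 TPM at day 2, and 1668, 1564 and 1304 TPM at day 14. The days overlapped. Clusters therefore made up 19.0% ± 4.62 of the summed TPM of the 81 genes at day 0, 41.2% ± 2.73 at day 2 and 52.5% ± 3.87 at day 14 (SD, n = 3 each). With the pseudogene symbol H3F3AP4, whose reads cannot be told apart from those of H3F3A, counted among the replacement variants, a choice made after seeing the data, the shares were 16.1%, 36.6% and 46.6%. Each share is a ratio within a library and does not move with scaling. The sums do: under median-ratio scaling the day 14 mean was 3.01 times the day 0 mean for the clusters and 0.594 times for the replacement variants, against 0.953 times as deposited.

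**Figure D1:**
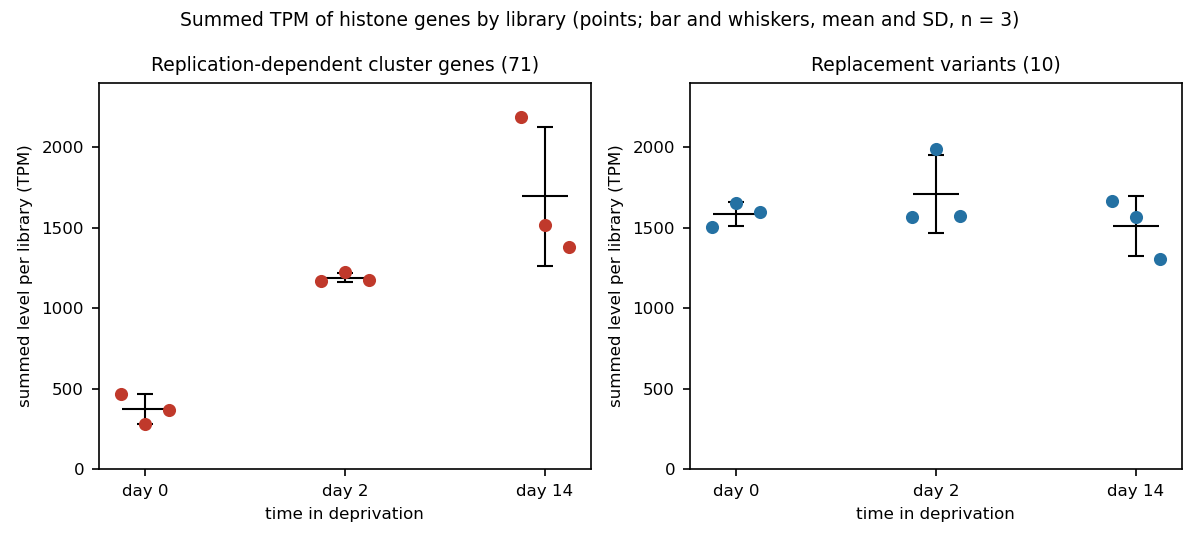
Summed level (TPM) of the 71 cluster genes (left) and the 10 replacement variants (right) in each library, by day; points are libraries, and bars with whiskers are the mean and SD of 3 libraries. Cluster sums lie between 282 and 469 TPM at day 0 and between 1170 and 2189 TPM on the deprived days, while the replacement sums overlap between days.

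Single cluster genes differed widely in level. Averaged over the 9 libraries, 18 cluster genes had a mean over 10 TPM, 19 a mean of 1 to 10 TPM and 34 a mean under 1 TPM; 8 were listed at 0 in every library. The 8 highest held 76.5% of the summed cluster TPM: HIST2H2AA4 (mean of 187 TPM), HIST1H2BK (175), HIST1H2BD (121), HIST1H2AC (116), HIST2H4B (91.3), HIST1H1C (48.8), HIST1H2BC (45.9) and HIST1H4H (45.7). A gene was tested where at least 3 of 9 libraries reached 1 TPM, which left 42 cluster genes and all 10 replacement variants; 29 cluster genes were not tested. Changes are log2 differences of TPM + 1 from limma, adjusted over 14144 genes, and understate the change of low genes. No day 0 library reached 1 TPM for 4 of the 42 tested cluster genes, namely HIST1H1E, HIST1H2AD, HIST1H4E and HIST3H2BB. These 4 passed the filter through the deprived days.

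**Figure D2:**
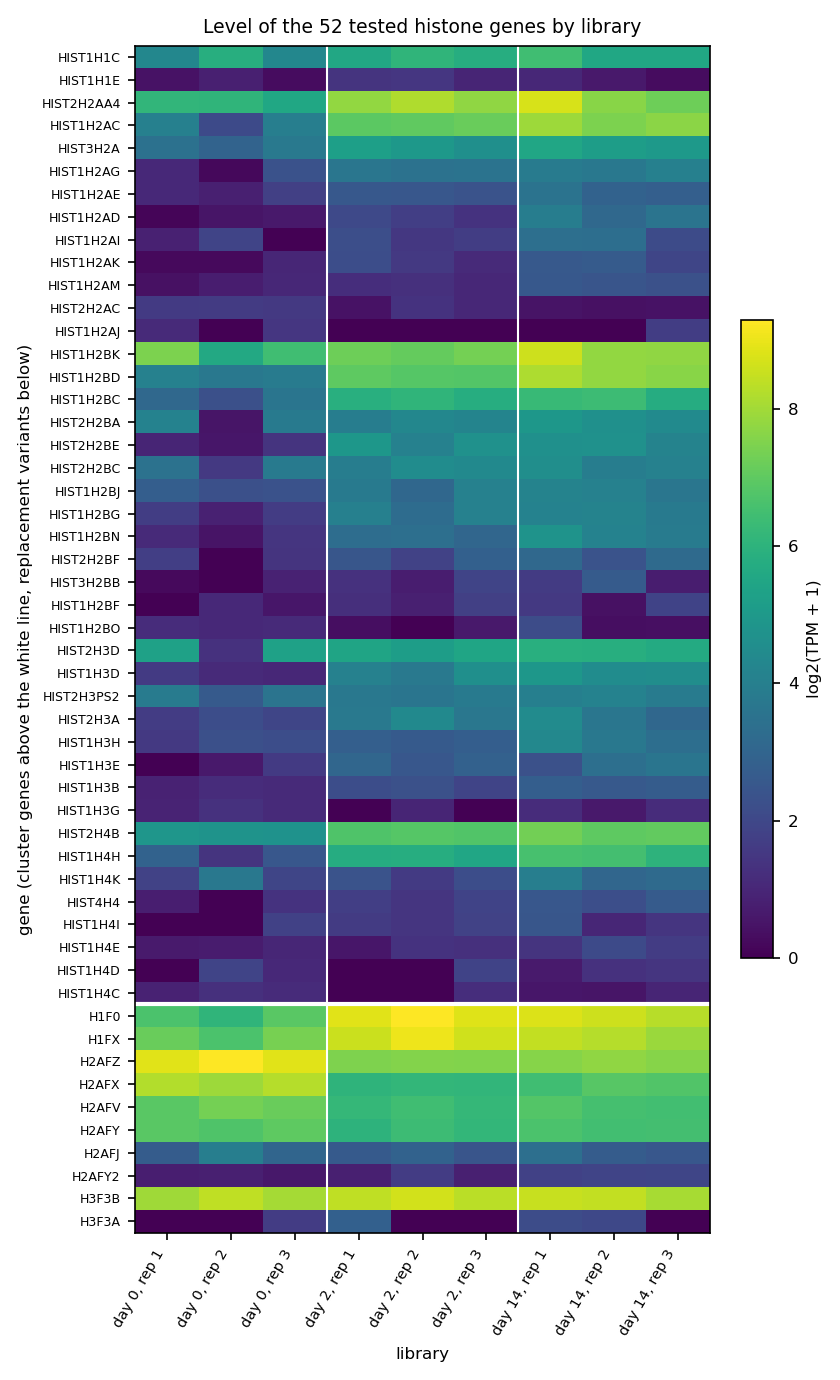
Level, as log2(TPM + 1), of the 52 tested histone genes (rows; cluster genes by family above the white line, replacement variants below) in the 9 libraries (columns, by day). Most of the brighter H2A, H2B and H4 rows are darker at day 0 than at day 2 and day 14, and day 0 replicate 2 departs from its day in rows such as HIST2H3D and HIST2H2BA.

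After 2 days of deprivation, 7 of 11 tested H2A genes, 6 of 13 H2B genes, 4 of 8 H3 genes and 2 of 8 H4 genes rose, with HIST1H2AC, HIST2H2BE and HIST1H4H the largest. limma called 20 of the 42 tested cluster genes higher and none lower; over all genes, 19.2% were called higher and 11.5% lower. At an unadjusted p under 0.05, 26 were higher and 2 lower (HIST1H3G and HIST2H2AC). The median change of the tested cluster genes was 1.16, against 0.23 over all tested genes, and 35 of the 42 were above 0. Of the 38 genes with a day 0 library at 1 TPM or more, 18 were called higher. Leaving out day 0 replicate 2 gave 22 higher and none lower of 41 tested.

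After 14 days, 26 of the 42 cluster genes were called higher and 1 lower, where 27.5% of all genes were called higher and 6.72% lower. The median change was 1.80, against 0.44 over all genes, with 37 of 42 above 0. Without day 0 replicate 2 the counts were 30 higher and 1 lower of 41. Calls over all genes leaned on the scaling: under median-ratio scaling 2166 genes were higher and 2563 lower, against 3890 and 951 as deposited, and the median over all genes moved from 0.44 to -0.05. At day 2 these were 2489 higher and 2837 lower under median-ratio scaling, against 2715 and 1633 as deposited. Under the same scaling the median of the cluster genes was 0.97 at day 2 and 1.28 at day 14, over 44 tested. Both comparisons share the day 0 libraries; 19 cluster genes were called higher in both, HIST1H1E at day 2 alone, and HIST1H2AI, HIST1H2AM, HIST1H2BK, HIST1H3H, HIST1H4E, HIST2H2BF and HIST4H4 at day 14 alone.

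**Figure D3:**
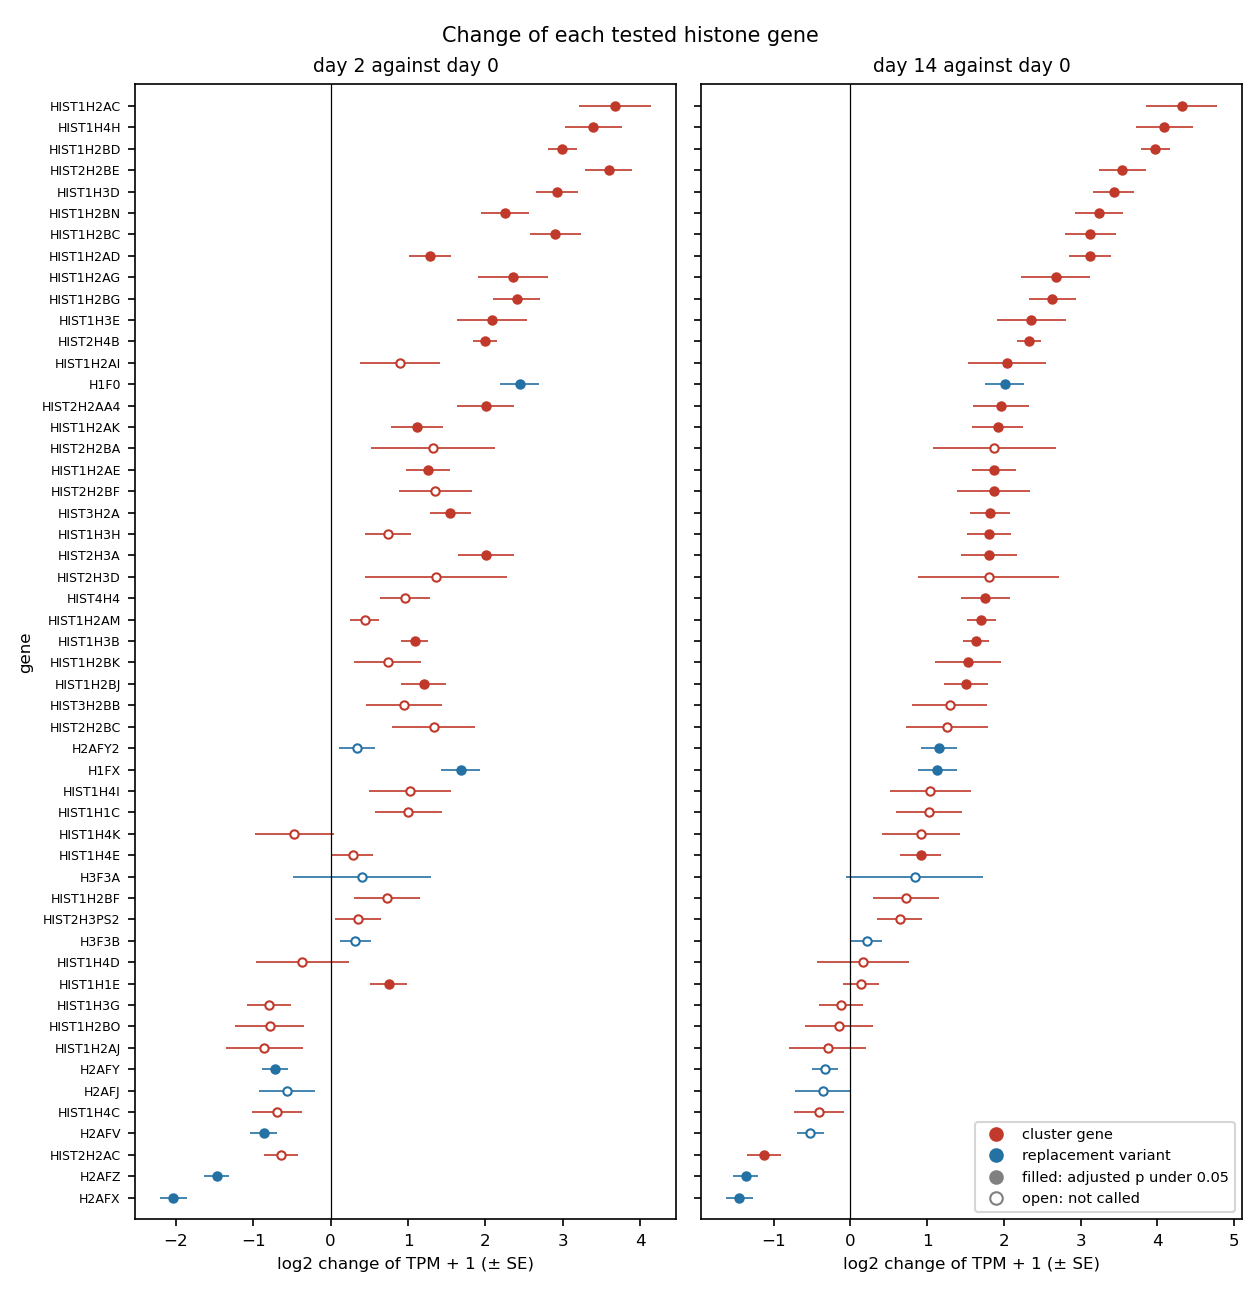
Change of each of the 52 tested histone genes, in log2 of TPM + 1 with its SE, at day 2 (left) and day 14 (right) against day 0; red, cluster genes; blue, replacement variants; filled, adjusted p under 0.05. HIST1H2AC, HIST1H4H, HIST1H2BD and HIST2H2BE lie at 3 or more log2 units in at least one panel, and H2AFX and H2AFZ lie at the bottom of both.

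HIST1H2AC, a core H2A gene, was at 15.4, 3.26 and 14.7 TPM in day 0 libraries, 123, 129 and 142 TPM at day 2, and 243, 173 and 203 TPM at day 14. The 3 days did not overlap. The change was 3.68 ± 0.47 at day 2 (SE, adjusted p = 0.000959) and 4.32 ± 0.47 at day 14 (adjusted p = 0.000573), and it stayed between 3.04 and 4.65 over the 18 alternatives in both comparisons. Its head-to-head neighbour HIST1H2BC, a core H2B gene, was at 7.85, 3.84 and 11.2 TPM at day 0, 57.2, 67.6 and 54.2 TPM at day 2, and 76.5, 81.8 and 53.0 TPM at day 14. It was above every day 0 library on both deprived days (2.90 ± 0.33 at day 2 and 3.12 ± 0.33 at day 14, adjusted p = 0.000632 and 0.000538), while day 2 and day 14 overlapped.

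HIST1H2BD, another core H2B gene, was at 15.9, 12.0 and 13.5 TPM at day 0, 127, 113 and 109.8 TPM at day 2, and 281, 220.2 and 197 TPM at day 14. Its replicates were close to each other and the days stood in order without overlap, with changes of 2.99 ± 0.19 at day 2 (adjusted p = 6.74e-05) and 3.97 ± 0.19 at day 14 (adjusted p = 4.95e-05). HIST1H4H, which encodes the core histone H4, was at 6.56, 1.61 and 4.74 TPM at day 0, 52.7, 54.1 and 43.7 TPM at day 2, and 95.3, 89.6 and 63.4 TPM at day 14 (3.40 ± 0.37 and 4.09 ± 0.37, adjusted p = 0.000498 and 0.000301). Again no library of one day reached the range of another.

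HIST2H2BE, a core H2B gene outside the large chromosome 6 cluster, was at 0.969, 0.47 and 1.61 TPM at day 0, 29.3, 15.8 and 25.0 TPM at day 2, and 24.5, 25.0 and 17.0 TPM at day 14. It was barely listed at day 0, and the deprived days overlapped at a common level (3.59 ± 0.30 and 3.54 ± 0.30, adjusted p = 0.000198 and 0.000245). HIST1H2AD, a core H2A gene, did not level off: it was at 0.0993, 0.437 and 0.542 TPM at day 0, 3.12, 2.29 and 1.59 TPM at day 2, and 14.5, 7.73 and 10.8 TPM at day 14. Since no day 0 library reached 1 TPM, HIST1H2AD passed the filter through the deprived days. Its change was 1.28 ± 0.27 at day 2 (adjusted p = 0.00859; call lost with a pseudocount of 5 and under quantile normalization) and 3.12 ± 0.27 at day 14 (adjusted p = 0.000251).

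Other large rises came from the H3, H2B and H2A families. HIST1H3D, an H3 gene, was at 1.05 to 1.99 TPM at day 0, 12.6 to 23.9 TPM at day 2 and 22.2 to 28.97 TPM at day 14 (2.92 ± 0.27 and 3.43 ± 0.27, adjusted p = 0.000268 and 0.000187). The H2B genes HIST1H2BG (2.40 ± 0.30 at day 2, 2.63 ± 0.30 at day 14) and HIST1H2BN (2.25 ± 0.31 and 3.24 ± 0.31) and the H2A gene HIST1H2AG (2.36 ± 0.45 and 2.67 ± 0.45) were called in both comparisons, with adjusted p between 0.000386 and 0.00565. All 3 stood at 4.08 TPM or less in each day 0 library and at 7.45 TPM or more in each deprived library.

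The most abundant cluster genes behaved unequally. HIST2H2AA4, a core H2A gene, was at 69.2, 66.5 and 45.1 TPM at day 0, 222, 288 and 216 TPM at day 2, and 427, 199 and 150.1 TPM at day 14. Both deprived days lay above day 0 (2.00 ± 0.37 and 1.96 ± 0.37, adjusted p = 0.00483 and 0.00516), and the day 14 libraries were spread widely around the day 2 ones. HIST2H4B, an H4 gene, was at 28.4, 26.1 and 25.6 TPM at day 0, 105, 115 and 107 TPM at day 2, and 157, 126 and 132 TPM at day 14, an ordered pattern with tight replicates (1.99 ± 0.15 and 2.32 ± 0.15, adjusted p = 0.00015 and 0.000107).

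HIST1H2BK, an H2B gene, was at 175, 48.0 and 85.7 TPM at day 0, 150.3, 137 and 163 TPM at day 2, and 379, 221 and 213 TPM at day 14. Day 2 lay within the day 0 range (0.73 ± 0.43, adjusted p = 0.221) and only day 14 was called (1.53 ± 0.43, adjusted p = 0.0253); this call was lost in 5 of the 18 alternatives, among them median-ratio scaling (0.93, adjusted p = 0.0575). HIST1H1C, a linker histone gene of the cluster, was at 18.8, 55.8 and 18.9 TPM at day 0, 47.2, 67.0 and 54.4 TPM at day 2, and 86.1, 45.8 and 45.6 TPM at day 14. Day 0 replicate 2 reached the level of the deprived libraries, the days overlapped, and neither change was called (1.004 ± 0.43 and 1.03 ± 0.43, adjusted p = 0.11 and 0.0966).

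The library that stood apart did so in the listed levels of some cluster genes, in either direction. In day 0 replicates 1, 2 and 3, the H3 gene HIST2H3D was at 39.2, 1.53 and 39.1 TPM and HIST2H2BA, a symbol of an H2B pseudogene, at 16.4, 0.455 and 12.8 TPM. The H4 gene HIST1H4K was instead at 2.6, 12.3 and 2.82 TPM. None of these 3 was called in either comparison with day 0, and the SE of the change was 0.92 for HIST2H3D and 0.80 for HIST2H2BA. These 3 genes were chosen after their values were seen. Most of their sequence is shared with other genes, as given below, so their values are uncertain as those of single genes.

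The cluster gene called lower was HIST2H2AC, a core H2A gene. It was at 2.00, 2.04 and 1.93 TPM at day 0, 0.354, 1.55 and 1.07 TPM at day 2, and 0.399, 0.344 and 0.375 TPM at day 14. All deprived libraries lay below day 0; day 14 was called (-1.12 ± 0.22, adjusted p = 0.00587) and day 2 was not (-0.64 ± 0.22, adjusted p = 0.0557), although it was called under median-ratio scaling (-0.89, adjusted p = 0.0254) and quantile normalization (-1.15, adjusted p = 0.0136). HIST2H2AC averaged 1.12 TPM over the 9 libraries, close to the filter, and shares sequence with other genes, as given below. Its neighbour on the opposite strand, HIST2H2BE, was among the largest rises.

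By family, H2A genes were called higher in 7 of 11 tested at day 2 and 9 of 11 at day 14, where HIST2H2AC was lower. H2B genes were higher in 6 and 8 of 13, H3 genes in 4 and 5 of 8, and H4 genes in 2 and 4 of 8. Over all genes, 19.2% were called higher at day 2, and 27.5% higher and 6.72% lower at day 14. The H4 count at day 2 was thus near the share of all genes. Of the 2 tested H1 genes of the cluster, HIST1H1E alone was called, at day 2 (0.75 ± 0.24, adjusted p = 0.0413; 1.62, 1.78 and 0.926 TPM at day 2, against 0.364, 0.753 and 0.237 TPM at day 0), and this call was lost in 7 of 14 alternatives. HIST1H1E reached 1 TPM in no day 0 library, so it passed the filter through the deprived days. Summed over a family, the day 14 mean was 6.08 times the day 0 mean for H2A, 4.47 for H2B, 2.77 for H3, 5.71 for H4 and 1.91 for the cluster H1 genes. The day 2 multiples were 4.73 for H2A, 2.73 for H2B, 2.06 for H3, 4.001 for H4 and 1.84 for H1. Under median-ratio scaling the day 14 multiples were 3.85 for H2A, 3.54 for H4 and 1.01 for H1, and the day 2 multiple of H1 was 1.18. By locus, 15 of 29 tested HIST1 genes were higher at day 2 and 19 at day 14; 4 and 5 of 10 HIST2 genes were, and 1 of 2 HIST3 genes in both. HIST4H4, the single gene of its locus, was at 0.718, 0 and 1.56 TPM at day 0, 2.29, 1.68 and 2.67 TPM at day 2, and 4.7, 3.68 and 5.4 TPM at day 14, and was called at day 14 (1.76 ± 0.32, adjusted p = 0.00475).

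Genes known to make polyadenylated mRNAs were among the abundant rises but were not the whole of them. Of 7 such genes (HIST1H1C, HIST1H2AC, HIST1H2BD, HIST1H2BJ, HIST1H2BK, HIST1H4H and HIST2H2BE), 5 were called higher at day 2 and 6 at day 14. Of the 35 other tested cluster genes, 15 were higher at day 2, and 20 were higher and 1 lower at day 14. Among all tested genes, 19.2% were called higher at day 2, and 27.5% higher and 6.72% lower at day 14. The 7 genes held 44.8% ± 5.83 of cluster TPM at day 0, 45.4% ± 2.28 at day 2 and 52.6% ± 1.49 at day 14 (SD, n = 3 each). Their sum was 3.20 times the day 0 mean at day 2 and 5.26 times at day 14; for the other cluster genes it was 3.20 and 3.98 times. Under median-ratio scaling the day 14 multiples were 3.49 for the 7 genes and 2.61 for the others. The 4 genes known as testis-specific (HIST1H1T, HIST1H2AA, HIST1H2BA and HIST3H3) did not pass the filter. Of 4 cluster symbols that name pseudogenes, 3 were tested and none was called by limma in either comparison with day 0, with 1 and 2 higher at an unadjusted p under 0.05.

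Between day 14 and day 2 few changes were called. Of the 42 cluster genes, HIST1H2AD (1.84 ± 0.27, adjusted p = 0.0361) and HIST1H2AM, another core H2A gene (1.27 ± 0.19, adjusted p = 0.04), were called higher and none lower; over all genes 0.212% were called higher and 0.205% lower, or 0.417% either way. HIST1H2AM was at 4.82, 4.53 and 3.98 TPM at day 14, against 1.3, 1.43 and 1.04 TPM at day 2, without overlap. These calls were kept in 5 (HIST1H2AD) and 4 (HIST1H2AM) of the 18 alternatives, and HIST1H2AD had passed the filter through the deprived days. At an unadjusted p under 0.05, 11 cluster genes were higher and 1 lower. The median change was 0.51, against 0.24 over all genes.

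This comparison turned on a library that is in neither day. Day 0 replicate 2 enters through the shared estimate of spread. Without it, 12 of 41 tested cluster genes were called higher. Among them were HIST1H2BD (0.97, adjusted p = 0.00842), HIST1H2AC (0.64, adjusted p = 0.0171), HIST1H4H (0.70, adjusted p = 0.032) and HIST1H2BN (0.98, adjusted p = 0.0233). Over all genes, 3311 were then higher and 543 lower of 14080, so the gain in calls was not particular to the clusters. A fit of the 6 libraries of the 2 days alone called 11 of 37 tested cluster genes higher, with 2248 of 13841 genes higher.

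The replacement variants differed in direction, also among the H2A variants. limma called 2 of the 10 higher and 4 lower at day 2, and 3 higher and 2 lower at day 14. Of all genes, 19.2% were called higher and 11.5% lower at day 2, and 27.5% higher and 6.72% lower at day 14. The counts called higher were thus near the shares of all genes, and the 4 of 10 called lower at day 2 were above theirs. Without day 0 replicate 2 there were 3 higher and 4 lower in each of these comparisons, and under median-ratio scaling 4 were lower at day 14. The median change was -0.12 at day 2 and -0.06 at day 14.

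The 2 linker variants were higher. H1F0 encodes the linker histone H1.0, known to accumulate in cells that stop dividing. It was at 101, 67.5 and 119 TPM at day 0, 466, 627 and 457 TPM at day 2, and 449, 385 and 314 TPM at day 14. Both deprived days lay above day 0, and day 14 lay below day 2 (2.44 ± 0.25 at day 2 and 2.01 ± 0.25 at day 14, adjusted p = 0.000426 and 0.00108; day 14 against day 2, -0.43 ± 0.25, adjusted p = 0.411).

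H1FX, the gene of linker histone H1X, was at 141, 99.3 and 166 TPM at day 0, 373, 529.7 and 396 TPM at day 2, and 346, 307 and 234 TPM at day 14, in the same order of days. Its change was 1.68 ± 0.25 at day 2 (adjusted p = 0.002) and 1.13 ± 0.25 at day 14 (adjusted p = 0.0103), and the day 14 call was lost under median-ratio scaling (0.53, adjusted p = 0.0718). Summed, the pair averaged 231 ± 59.8 TPM at day 0, 949.6 ± 179 at day 2 and 678 ± 124 at day 14 (SD, n = 3 each).

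The H2A variants H2A.X and H2A.Z were lower. H2AFX, whose protein is phosphorylated at DNA breaks and whose mRNA can end in the stem-loop shown above, was at 302, 246 and 302 TPM at day 0, 65.1, 71.1 and 68.7 TPM at day 2, and 85.9, 116 and 109 TPM at day 14. The 3 days did not overlap, with day 2 lowest (-2.03 ± 0.17 at day 2 and -1.45 ± 0.17 at day 14, adjusted p = 0.000208 and 0.000876). H2AFZ, the main H2A.Z gene, was at 464, 621 and 474 TPM at day 0, 182, 188 and 185 TPM at day 2, and 194, 213 and 192 TPM at day 14 (-1.47 ± 0.16 and -1.36 ± 0.16, adjusted p = 0.000566 and 0.000901). Both calls held in all 18 alternatives for each of these genes.

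H2AFV, the second H2A.Z gene, was at 120.5, 162 and 142 TPM at day 0, 72.8, 86.4 and 72.1 TPM at day 2, and 111, 93.9 and 89.2 TPM at day 14. It lay below day 0 on both days and was called at day 2 (-0.86 ± 0.18, adjusted p = 0.00789) but missed the threshold at day 14 (-0.52 ± 0.18, adjusted p = 0.0511; adjusted p = 0.0245 under median-ratio scaling). Together these 3 H2A variants averaged 944 ± 74.6 TPM at day 0, 330.3 ± 13.5 at day 2 and 401 ± 18.4 at day 14 (SD, n = 3 each). H2AFJ, a further H2A variant, was low and variable, at 5.45 to 14.6 TPM at day 0, 4.47 to 6.6 TPM at day 2 and 4.69 to 9.63 TPM at day 14, and was not called.

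The macroH2A genes encode H2A variants with a large extra domain. H2AFY was at 120.2, 105 and 127 TPM at day 0, 62.7, 82.1 and 69.8 TPM at day 2, and 101, 88.6 and 90.0 TPM at day 14. It was called lower at day 2 (-0.71 ± 0.17, adjusted p = 0.0134; lost without day 2 replicate 1 or 3) and was not called at day 14 (-0.33 ± 0.17, adjusted p = 0.155; -0.93, adjusted p = 0.00948, under median-ratio scaling). H2AFY2 was at 0.728, 0.753 and 0.527 TPM at day 0, 0.74, 2.12 and 0.74 TPM at day 2, and 2.51, 2.76 and 2.84 TPM at day 14. Day 14 stood above all other libraries (1.15 ± 0.23 against day 0, adjusted p = 0.00698; lost under quantile normalization), and since no day 0 library reached 1 TPM this gene passed the filter through the later days.

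The H3 variant H3.3 is made from H3F3A and H3F3B. H3F3B was at 249.8, 338 and 261 TPM at day 0, 337, 399.5 and 318 TPM at day 2, and 365, 350.3 and 268 TPM at day 14; the days overlapped and neither change was called (0.32 ± 0.20 and 0.21 ± 0.20, adjusted p = 0.248 and 0.426). Under quantile normalization day 2 was called higher (0.58, adjusted p = 0.00702). H3F3A was listed at 0, 0 and 2.12 TPM at day 0, 6.21, 0 and 0 TPM at day 2, and 3.48, 2.996 and 0 TPM at day 14, while the symbol of its pseudogene H3F3AP4 stood at 315 to 466 TPM in all 9 libraries. The annotated H3F3AP4 transcript is 411 nt long and equals H3F3A over its whole length, so reads of the 2 cannot be told apart there and the low level of H3F3A is uncertain. Their sum averaged 359.7 ± 58.7 TPM at day 0, 368 ± 19.3 at day 2 and 407 ± 58.9 at day 14 (SD, n = 3 each), and H3F3AP4 was not called (0.04 ± 0.18 at day 2 and 0.17 ± 0.18 at day 14).

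**Figure D4:**
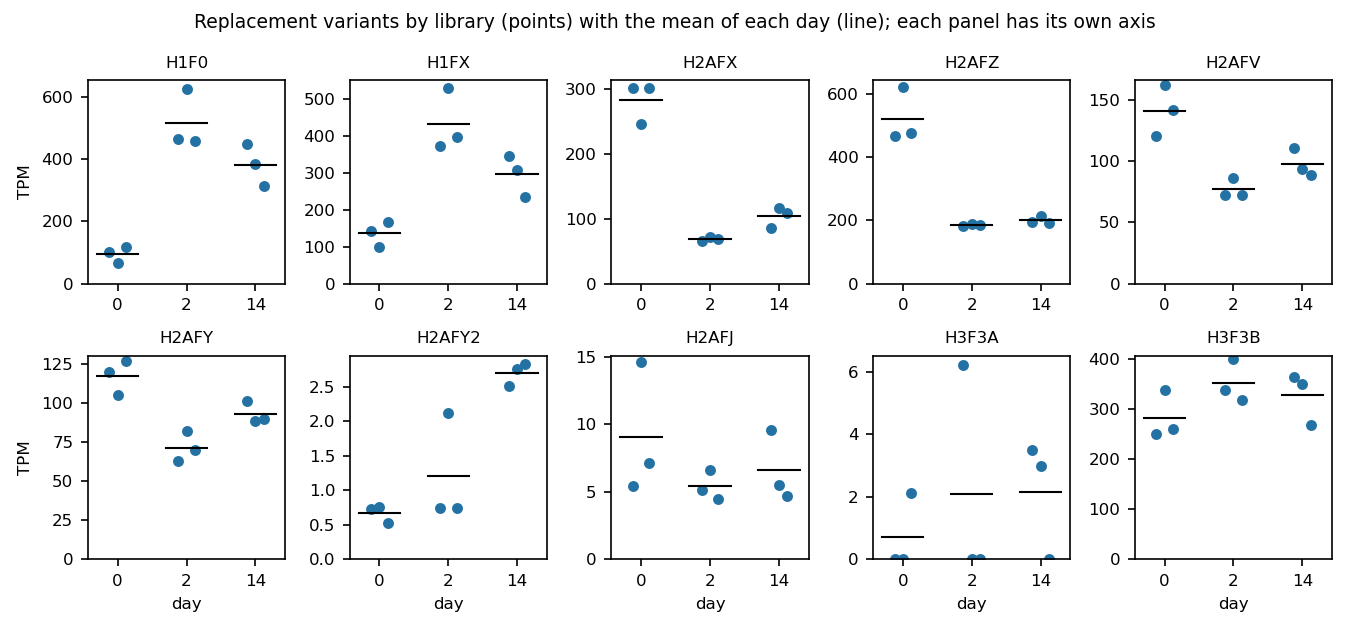
TPM of each replacement variant in each library (points) with the mean of the day (line), for day 0, 2 and 14; every panel has its own axis starting at 0. H1F0 and H1FX peak at day 2, H2AFX, H2AFZ, H2AFV and H2AFY are lowest at day 2, and H3F3A is at 6.21 TPM or less in every library.

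Shared sequence limits how far single cluster genes can be told apart. For each gene, the share of its 31-base stretches found in no other gene of GENCODE v29 was taken as a measure of uniqueness; the split at 50% was chosen after values were seen. Of the 71 cluster genes, 55 were at or above 50% and 27 of these were tested: 14 were called higher at day 2 and 17 at day 14, none lower, and none in day 14 against day 2 (7 higher and 1 lower at an unadjusted p under 0.05). The 16 genes under 50%, of which 15 were tested, gave 6 higher at day 2 and 9 higher with 1 lower at day 14, and both genes called between day 14 and day 2. Across all tested genes, 19.2% were called higher and 11.5% lower at day 2, and 27.5% higher and 6.72% lower at day 14. Between day 14 and day 2, 0.212% were called higher. Summed TPM of the mostly unique genes averaged 120 ± 11.5 at day 0, 574.6 ± 4.18 at day 2 and 856 ± 150 at day 14, which is 4.80 and 7.15 times the day 0 mean. For the other genes it averaged 252 ± 92.6, 616 ± 31.05 and 839.5 ± 283 TPM on the same days, or 2.44 and 3.33 times. Under median-ratio scaling, added after seeing the data, the day 14 multiples were 4.56 and 2.23.

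Several abundant genes were on the shared side: HIST2H2AA4 had 2.81% unique stretches, HIST2H4B 2.79% and HIST1H2BK 13.7%, and HIST1H3D and HIST2H3A had none. HIST1H2AD had 1.93%, HIST1H2AM 12.9% and HIST2H2AC 49.4%. Among the genes in which day 0 replicate 2 stood apart, HIST2H3D had 13.6%, HIST2H2BA 15.3% and HIST1H4K none. The levels of all these genes depend on how reads were divided among near-identical copies and are uncertain as values of a single gene. HIST1H2AC had 98.2% unique stretches and HIST2H2BE 87.6%.

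Annotated transcripts of the cluster genes differ in where they end. In 22 cluster genes an annotated transcript ran over 100 nt past the stem-loop; 20 of these were tested, 11 were called higher at day 2 and 15 at day 14. In 8 genes the transcripts that held it ended within 100 nt of it (4 tested, 3 and 4 higher). Transcripts of these genes without the stem-loop were not measured, and HIST1H2BD among them had annotated transcripts of 496 and 789 nt. In 8 other genes no stem-loop was found (4 tested, 2 and 1 higher). Of the 33 genes annotated by coding sequence alone, 14 were tested, 4 were higher at day 2, and 6 were higher and 1 lower at day 14. The shares of all tested genes were 19.2% higher at day 2, and 27.5% higher and 6.72% lower at day 14. The 1 of 4 genes without a stem-loop at day 14 was near that share, and the 4 of 14 at day 2 were little above theirs. The median gene averaged 8.14 TPM in the first class and 0.45 TPM in the last. Whether the authors' hg19 annotation drew the same ends is not given in the sources used here, and a short model changes both the length in TPM and the reads it can hold.

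**Figure D5:**
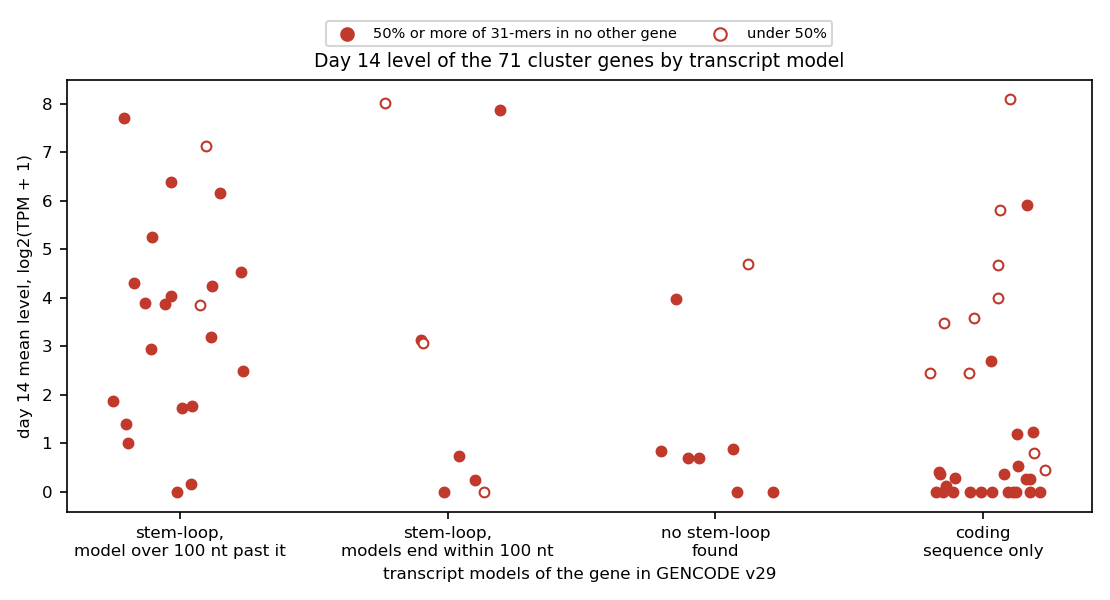
Mean day 14 level, as log2(TPM + 1), of the 71 cluster genes by the kind of transcript annotated in GENCODE v29; filled, at least 50% of 31-base stretches found in no other gene; open, under 50%. Genes with a transcript past the stem-loop are mostly detected, and most genes annotated by coding sequence alone lie near 0.

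Promoters of the clusters shared sequence that the symbol rule did not use. Of the members, 67 matched a RefSeq promoter (GRCh38.p14, 250 bases before to 50 after the start). The CCAAT box (CCAAT), the TATA box (TATAAA) and the octamer of H2B promoters (ATTTGCAT) were searched on both strands, and none of the 3 lies within another. CCAAT was in 49 of 58 cluster promoters (84.5%) and 6 of 9 replacement promoters (66.7%), against 35.7% of 27305 promoters. TATAAA was in 67.2% of cluster and 44.4% of replacement promoters, against 12.0%. ATTTGCAT was in 36.2% of cluster and 11.1% of replacement promoters, against 1.80%. It was held by 11 of 15 H2A and 9 of 13 H2B promoters. Some cluster genes on opposite strands start within 500 nt of each other, so their windows can overlap and the same match can count for both. CCAAT was in every cluster H1, H2A, H2B and H3 promoter and in 3 of 12 H4 promoters. A match describes letters and is no evidence of a bound factor.

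Promoters are shown for a pair of genes with large rises and for the replacement variant with the largest fall, with motif matches on either strand in capitals, read along the gene's strand. HIST1H2AC lies on the plus strand at chr6:26123922-26124221, HIST2H2BE on the minus strand at chr1:149886633-149886932 and H2AFX on the minus strand at chr11:119095416-119095715.
HIST1H2AC: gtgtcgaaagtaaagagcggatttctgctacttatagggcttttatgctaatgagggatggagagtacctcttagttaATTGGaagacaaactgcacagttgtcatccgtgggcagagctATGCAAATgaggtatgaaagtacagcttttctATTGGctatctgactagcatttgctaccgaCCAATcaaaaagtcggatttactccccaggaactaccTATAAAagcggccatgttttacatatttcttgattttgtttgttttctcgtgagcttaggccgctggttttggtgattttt
HIST2H2BE: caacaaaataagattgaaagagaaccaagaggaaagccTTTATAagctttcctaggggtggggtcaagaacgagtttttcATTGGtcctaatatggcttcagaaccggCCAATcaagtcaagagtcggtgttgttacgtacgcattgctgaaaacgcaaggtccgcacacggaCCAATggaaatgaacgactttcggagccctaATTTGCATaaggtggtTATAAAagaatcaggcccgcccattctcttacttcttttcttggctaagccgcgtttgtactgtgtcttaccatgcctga
H2AFX: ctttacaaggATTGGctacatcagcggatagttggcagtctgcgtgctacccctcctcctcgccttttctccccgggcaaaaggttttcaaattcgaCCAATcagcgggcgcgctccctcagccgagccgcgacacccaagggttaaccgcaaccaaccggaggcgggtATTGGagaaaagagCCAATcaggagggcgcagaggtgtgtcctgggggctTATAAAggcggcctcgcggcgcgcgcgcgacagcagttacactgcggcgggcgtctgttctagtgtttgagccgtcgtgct

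All 3 hold CCAAT and TATAAA, and the 2 cluster promoters also hold the octamer. The stem-loop of H2AFX has a form found in no cluster gene. The level of H2AFX moved in the opposite direction to HIST1H2AC and HIST2H2BE in every deprived library. Whether the boxes or the stem-loop bear on the direction was not tested.

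Many genes of DNA replication and of histone deposition coupled to it were called lower on both deprived days. Of 15 S-phase genes, 14 were called lower at day 2 and 13 at day 14, where 11.5% and 6.72% of all genes were. None was called higher by limma and none was higher at an unadjusted p under 0.05. The median change was -1.99 and -1.31. TYMS, which makes thymidylate for DNA, fell by 2.74 and 2.22 on the log2 scale, MCM4, a replicative helicase subunit, by 2.50 and 1.69, and cyclin A (CCNA2) by 1.99 and 2.18 (adjusted p between 0.000238 and 0.00197). Of 15 replication-coupled chaperones, 8 were lower at day 2 and 5 at day 14, beside the same shares of all genes. None of them was higher at either threshold. CHAF1A and CHAF1B, subunits of the CAF-1 complex that deposits new H3 and H4, changed by -1.95 ± 0.28 and -2.00 ± 0.22 at day 2 and by -1.11 ± 0.28 and -1.31 ± 0.22 at day 14 (adjusted p between 0.000491 and 0.0159; the day 14 call of CHAF1A was lost without day 14 replicate 1). TONSL, a reader of newly made histones, fell by 2.29 and 1.76 on the log2 scale. ASF1B, an H3 and H4 chaperone linked to proliferation, was at 54.5, 30.97 and 54.0 TPM at day 0, 12.7, 14.7 and 9.76 TPM at day 2, and 13.7, 25.5 and 27.3 TPM at day 14 (adjusted p = 0.00435 and 0.0363); the day 14 call was lost in 11 of the 18 alternatives. Its paralogue ASF1A was at 9.08 to 10.6, 11.9 to 13.9 and 10.7 to 13.3 TPM on the 3 days and was not called.

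Of 10 genes for transcription and processing of histone mRNA, 3 were lower at day 2 and 2 at day 14, where 11.5% and 6.72% of all genes were, and none was called higher (0 and 2 higher at an unadjusted p under 0.05). SLBP, the stem-loop binding protein, was at 58.5, 95.2 and 62.4 TPM at day 0, 37.2, 43.1 and 40.6 TPM at day 2, and 50.5, 44.1 and 38.4 TPM at day 14. All deprived libraries lay below day 0 (-0.79 ± 0.22 and -0.66 ± 0.22, adjusted p = 0.0251 and 0.0449), but the day 2 call was lost in 4 and the day 14 call in 10 of the 18 alternatives. LSM10, a subunit of the U7 particle that cuts histone pre-mRNA, fell by 1.76 and 0.91 on the log2 scale (adjusted p = 0.00134 and 0.0202), the day 14 call being lost in 4 of the 18 alternatives. NPAT, the coactivator of cluster transcription, was at 5.72, 1.66 and 5.48 TPM at day 0, 4.48, 4.88 and 4.36 TPM at day 2, and 8.72, 8.18 and 8.05 TPM at day 14. It missed the threshold at day 14 (0.93 ± 0.33, adjusted p = 0.0589) and passed it in 4 of the 18 alternatives, among them without day 0 replicate 2 (0.50, adjusted p = 0.006). Its partner CASP8AP2 was not called (0.09 ± 0.36 and 0.47 ± 0.36).

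Of 6 genes for decay of histone mRNA, 1 was higher at day 2 and 2 at day 14, where 19.2% and 27.5% of all genes were, and none lower at either threshold. XRN1, a 5′-to-3′ exonuclease, was at 4.3, 1.26 and 4.46 TPM at day 0, 11.1, 13.1 and 14.3 TPM at day 2, and 12.6, 16.7 and 11.9 TPM at day 14 (1.77 ± 0.34 and 1.85 ± 0.34, adjusted p = 0.00574 and 0.0047). ZCCHC11, a uridyl transferase, was called at day 14 (1.40 ± 0.47, adjusted p = 0.0485), a call lost in 12 of the 18 alternatives. UPF1, a helicase of histone mRNA decay, was at 65.8, 17.0 and 63.4 TPM in the day 0 libraries and was not called (-0.02 ± 0.45 and 0.11 ± 0.45).

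Of 14 genes for deposition outside replication, 2 were higher and 4 lower in each comparison with day 0. Among all genes, 19.2% were higher and 11.5% lower at day 2, and 27.5% higher and 6.72% lower at day 14. On so short a list, the 2 called higher were near the share of all genes at day 2 and below it at day 14. The 4 called lower were above the shares of all genes called lower. ATRX (1.45 ± 0.33 and 1.41 ± 0.33), a remodeller that works with H3.3, and UBN2 (0.80 ± 0.26 and 0.9997 ± 0.26), a subunit of the HIRA complex, were called higher; the UBN2 call was lost in 12 of the 18 alternatives at day 2 and in 3 at day 14. RUVBL1 and RUVBL2, ATPases of the complexes that insert H2A.Z, were lower, by -2.13 ± 0.17 and -1.83 ± 0.18 at day 2 and by -1.21 ± 0.17 and -1.51 ± 0.18 at day 14. HJURP, the chaperone of CENP-A, was also called lower (-1.73 ± 0.46 and -2.16 ± 0.46), the day 2 call being lost in 5 of the 18 alternatives. HIRA itself was not called (-0.05 ± 0.31 and 0.34 ± 0.31). No gene of these 5 lists was called between day 14 and day 2; at an unadjusted p under 0.05, 5 S-phase genes, 7 replication-coupled chaperones, 3 transcription and processing genes, 2 decay genes and 2 deposition genes were higher and none lower.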

How the data were processed

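Per the labels' protocols, RNA from 9 PANC-1 samples was extracted with a Qiagen kit and a sequencing company made the libraries. The values the authors deposited are TPM per gene symbol; the submitters' processing notes name Salmon and hg19. The sources used here do not give its version, annotation or strand setting. Genes reaching 1 TPM in 3 or more of the 9 libraries were kept (14144), and log2(TPM + 1) was analysed. One model over all 9 libraries (limma 3.58.1, R 4.3.3, prior variance following mean level) compared the days by two-sided tests, adjusted by Benjamini-Hochberg over all tested genes and called at 0.05. The fit was tested on simulated data.

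Members and gene lists were chosen with earlier results of these data known. Named genes were the 10 replacement variants, the 8 highest cluster genes, up to 8 called rises and 8 falls of the clusters per comparison, up to 2 each way per list, and 10 genes by name. Sequence features came from GENCODE v29 transcripts and RefSeq promoters (GRCh38.p14), with Python 3.11.15; all 81 symbols were found in GENCODE v29. Class sums are descriptions without a test, and no test compared the 2 classes. Alternatives were other pseudocounts (0.1 and 5), no filter, median-ratio scaling, quantile normalization, TPM without short RNA symbols, no trend, a replicate block, a fit to only the 2 days at issue, and each library left out in turn. Replicate numbers did not pair the samples.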

Additional observations from a re-analysis of the deposited data

How the results depend on the processing

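The 20 cluster rises at day 2 and 26 at day 14 stayed within 1.5 times under every alternative run, and leaving out 1 library gave 17 to 22 and 23 to 30. The day 14 against day 2 count was not stable: it was 2 as reported, 0 with a pseudocount of 0.1, without a filter, under quantile normalization, without short RNA symbols and with the replicate block, 1 under median-ratio scaling, 11 in a fit of the 2 days alone, and 0 to 12 with 1 library left out (12 without day 0 replicate 2). Cluster genes called lower at day 2 numbered 0 as reported, 1 with a pseudocount of 5, without a filter, without short RNA symbols and in the fit of the 2 days, 2 under median-ratio scaling and quantile normalization, and 0 to 2 with 1 library left out. At day 14 they numbered 1 as reported, 3 without a filter and under median-ratio scaling, 2 without short RNA symbols, and 1 to 2 with 1 library left out; between day 14 and day 2 they stayed at 0. Replacement variants called lower at day 14 numbered 2 as reported, 4 under median-ratio scaling and quantile normalization, and 2 to 4 with 1 library left out; those called lower at day 2 numbered 3 to 4. Variants called higher numbered 2 to 3 at day 2 and 3 at day 14 with 1 library left out; between day 14 and day 2 they numbered 0 as reported, 1 in the fit of the 2 days and 0 to 3 with 1 library left out (3, namely H2AFX, H2AFY and H2AFY2, without day 0 replicate 2). Without that library CASP8AP2 at day 2 (-0.38) and UPF1 at day 14 (-0.51) were called lower, opposite in sign to the reported values; with 1 library left out CASP8AP2 ranged up to 0.36 and UPF1 up to 0.43, and the cause was not tested. Same-numbered libraries did not deviate together (0 of 9 pairs over 0.1), so the numbers give no pairing; with the replicate block 19, 26 and 0 of the reported cluster rises were called. TPM keep no depth, so the error of low values is unknown.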

Other observations

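Cluster genes lie in pairs that start back to back. In GENCODE v29, 13 pairs of members on opposite strands had starts within 500 nt of each other, holding 25 genes. At day 14 both genes were called higher in 3 pairs, HIST1H2AC with HIST1H2BC (219 nt apart), HIST1H2AE with HIST1H2BG (283 nt) and HIST1H2AG with HIST1H2BJ (292 nt). In 7 pairs 1 gene was called higher and in 3 neither was, where 27.5% of all tested genes were called higher. Every pair with neither called held a gene that was not tested. So did the pairs of HIST1H2AI with HIST1H2BL and of HIST1H2BK with HIST1H2AH, where the other gene was called. Levels within a pair could be far apart: HIST1H2BK averaged 175 TPM over the 9 libraries and its partner HIST1H2AH 0.387 TPM, and HIST2H2AA4 averaged 187 TPM and its partner HIST2H2BC 15.03 TPM.

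Of 10 histone genes that the symbol rule left out, 9 were in the table and 2 were tested. CENPA, the H3 variant of centromeres, was at 45.3, 34.2 and 48.7 TPM at day 0, 14.96, 13.2 and 14.5 TPM at day 2, and 6.57, 20.0 and 14.8 TPM at day 14. Every deprived library lay below day 0, and limma called both changes (-1.51 ± 0.35 at day 2 and -1.67 ± 0.35 at day 14, adjusted p = 0.0124 and 0.00775). H2BFS, an H2B gene symbol, was at 0 to 3.58 TPM and was not called.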
